A study of Homo sapiens with 4 samples.

Results

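The HOX genes comprised 39 of the 58365 rows in the table, namely every row whose symbol is HOX followed by a cluster letter from A to D and a paralog number. The HOXA cluster has 11 members, the HOXB cluster has 10, and the HOXC and HOXD clusters have 9 each. No symbol had several rows. To explore which genes respond to inhibition of TGFβ signaling as blood cells arise, the study performed RNA-seq at day 8 of hematopoietic differentiation of H1, a widely used human embryonic stem cell line. All libraries came from cells given 40 ng/ml activin A and 50 ng/ml BMP4 for 2 days, then 40 ng/ml VEGF and 50 ng/ml bFGF for 3 days, then VEGF and bFGF again for the last 3 days. Per the titles, 2 libraries received DMSO, the solvent, in those last 3 days and 2 libraries received SB431542 (SB), an inhibitor of TGFβ type I receptor kinases. The study describes a collection of CD31+ cells, which the labels do not mention. H1 is a single line, and nothing in the labels says that libraries of a group came from separate cultures, so the p-values below measure only the spread between these libraries, which may be technical.

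HOX genes encode transcription factors that bind DNA through the homeodomain and give cells their position along the head-to-tail axis. Within a cluster the genes lie in the order of their paralog numbers, and those with low numbers, at the 3′ end, are usually switched on earlier and further toward the head than those with high numbers, at the 5′ end. In blood, HOXA and HOXB genes with middle numbers are known from stem and progenitor cells, where they work with cofactors of the PBX and MEIS families, and the medial HOXA genes are known as markers of definitive stem cells.

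The unit of the table is FPKM, in which fragments are divided by transcript length and by the total of the library. For low genes with 1 transcript the values step by what 1 fragment is worth, and these steps gave totals of about 24220000 and 23520000 fragments in the DMSO libraries and 19660000 and 25980000 in the SB libraries. At these depths 3 fragments on a transcript of median length, for HOX genes with 1 transcript, equal 0.0663 and 0.0689 FPKM in the DMSO libraries and 0.0822 and 0.0622 FPKM in the SB libraries. PECAM1, the gene of CD31, was expressed in all 4 libraries with overlapping groups.

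Only HOXB2 to HOXB9 reached a mean of 1 FPKM in a group, while the closest relatives in other clusters were near 0. The homeobox is where such relatives are most alike, so the stretch that codes for the DNA-recognition helix is shown for HOXB2, HOXB6, HOXB7 and HOXB9 of the expressed genes and for HOXD9, the best match of HOXB9 in another cluster. Sequences are from the GENCODE 29 transcripts on GRCh38, 51 bases each, 5′ to 3′ on the coding strand, and each lies in 1 coding exon. They cover residues 42 to 58 of the 60 in the homeodomain. Capitals mark the 18 bases for its Trp-Phe-Gln-Asn core and the Arg-Arg pair that follows.
HOXB2: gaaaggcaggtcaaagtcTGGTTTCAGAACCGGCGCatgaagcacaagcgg
HOXB6: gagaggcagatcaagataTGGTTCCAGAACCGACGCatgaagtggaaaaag
HOXB7: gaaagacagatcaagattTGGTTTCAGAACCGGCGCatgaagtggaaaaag
HOXB9: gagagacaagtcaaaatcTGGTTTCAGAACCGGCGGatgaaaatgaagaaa
HOXD9: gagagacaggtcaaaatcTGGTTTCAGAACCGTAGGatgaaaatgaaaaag
The HOXB stretches lie on the minus strand of chromosome 17, from chr17:48543539-48543589 in HOXB2, chr17:48596479-48596529 in HOXB6 and chr17:48607914-48607964 in HOXB7 to chr17:48622927-48622977 in HOXB9. That of HOXD9 lies at chr2:176124092-176124142.

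Over the whole homeobox of 180 bases, HOXB2 and HOXA2 were identical at 76.7% of bases and 98.3% of residues. HOXB6 matched HOXA6 at 86.7% of bases and 95% of residues, and HOXB9 matched HOXD9 at 84.4% and 91.7%. The longest run of bases that a transcript of HOXB9 shared with one of HOXD9 was 40. Within the cluster, annotated transcripts of HOXB3 and HOXB6 share a run of 434 bases. The row of HOXB3 spans chromosome 17 from 48548870 to 48604912 and takes in HOXB4, HOXB5 and most of HOXB6 on the same strand, and the row of HOXB7 (48607227 to 48633572) takes in HOXB8 and HOXB9. HOXB4 shares a run of 65 bases with HOXB3, and HOXB7 shares one of 51 bases with HOXB6. The longest run within the cluster was 27 bases for HOXB8, with HOXB7, and 19 bases for HOXB9, with HOXB2. How fragments were divided between overlapping transcripts is not stated. The levels of HOXB3, HOXB4, HOXB6 and HOXB7 are uncertain in this respect.

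Expression of the HOX genes came almost wholly from the HOXB cluster. HOXB genes summed to 299 and 144 FPKM in the DMSO libraries and to 216 and 129 FPKM in the SB libraries. HOXA genes summed to 0.728 and 1.24 FPKM with DMSO and to 0.553 and 0.436 FPKM with SB. HOXC genes stayed between 0.0668 and 0.293 FPKM and HOXD genes between 0.121 and 0.804 FPKM in sum. HOXB2 to HOXB9 thus held 98.3% to 99.6% of the HOX signal of a library, in both groups.

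**Figure D1:**
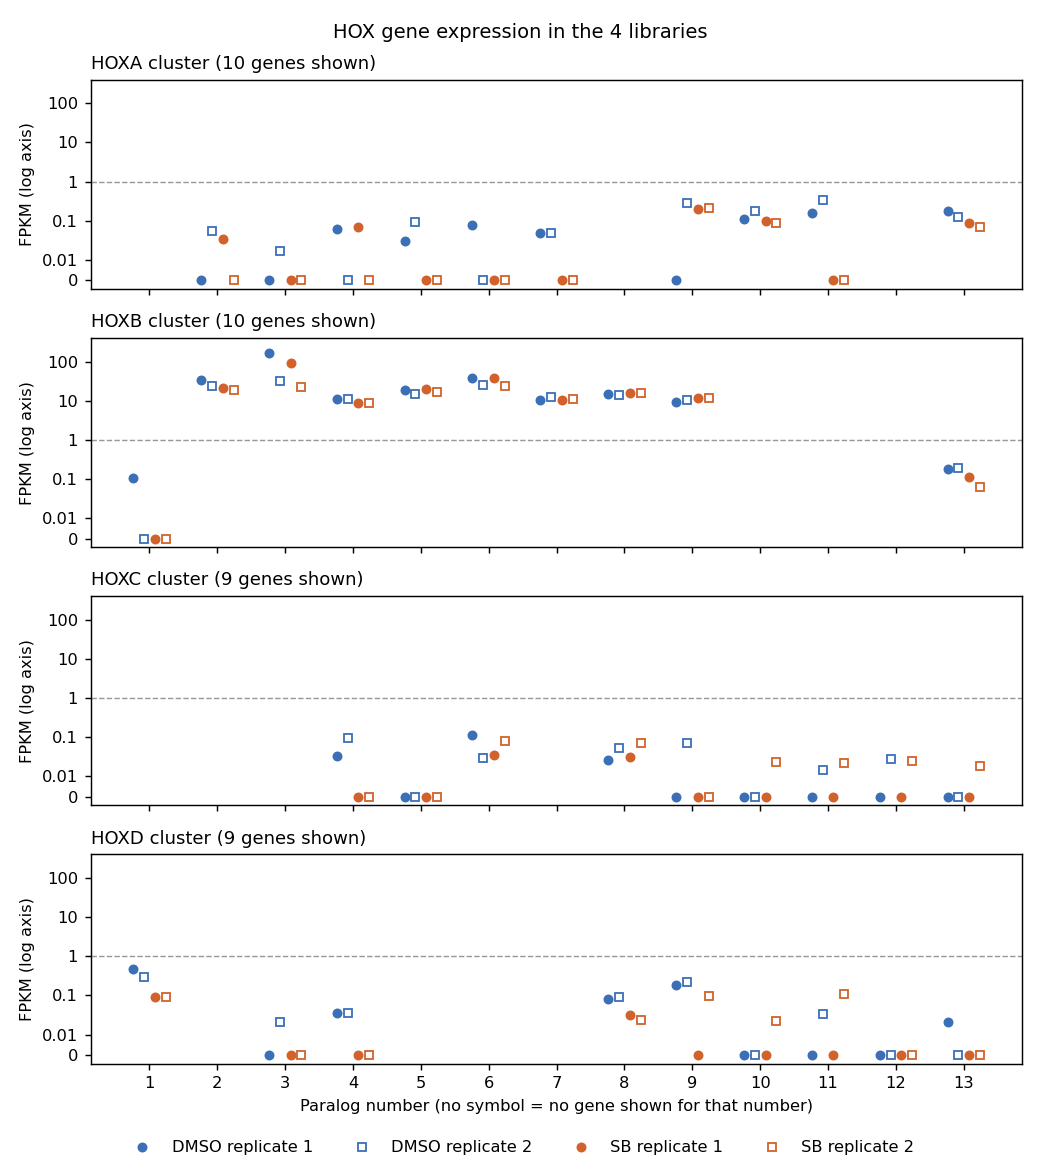
FPKM of the HOX genes shown (log axis, with values of 0 drawn on the lowest line) by cluster and paralog number, with 1 point for each of the 2 DMSO and 2 SB libraries. HOXB2 to HOXB9 lie between 8.58 and 163.3 FPKM, and each of the other genes lies at or below 0.485 FPKM.

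The anterior genes HOXB2 to HOXB4 had lower means with SB, and HOXB3 had the widest spread of the 8. HOXB3 (ENSG00000120093.11) had 163.3 and 32.3 FPKM in the DMSO libraries and 89.8 and 22.1 FPKM in the SB libraries. Replicate 1 was far above replicate 2 in both groups, and the groups overlapped. HOXB2 (ENSG00000173917.10, chromosome 17, 48540894 to 48544989), a gene best known from hindbrain patterning, had 33.3 and 24.1 FPKM with DMSO and 21.3 and 18.8 FPKM with SB. Both SB values lay below both DMSO values. HOXB4 (ENSG00000182742.5, chromosome 17, 48575513 to 48580111), a gene known for expanding blood stem cells when it is forced on, had 10.9 and 11.2 FPKM with DMSO and 8.58 and 8.65 FPKM with SB. Here the values within a group nearly coincided and the groups did not overlap. As HOXB4 has 1 transcript, its values correspond to about 922 and 914 fragments with DMSO and 586 and 781 with SB, and the 95% Poisson intervals, which cover counting error only, run from 10.2 to 12.0 FPKM over the DMSO libraries and from 7.90 to 9.31 FPKM over the SB libraries.

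The central and posterior genes differed less between the groups. HOXB5 (ENSG00000120075.5, chromosome 17, 48591257 to 48593961) had 18.5 and 14.7 FPKM with DMSO and 19.3 and 16.2 FPKM with SB, and HOXB6 (ENSG00000108511.9, chromosome 17, 48595751 to 48604992), known from early erythroid and progenitor cells, had 38.1 and 25.04 FPKM with DMSO and 38.9 and 24.4 FPKM with SB. Both were higher in replicate 1 of each group, and the groups overlapped. HOXB7 (ENSG00000260027.4) had 10.7 and 12.2 FPKM with DMSO and 10.7 and 11.0 FPKM with SB. Its groups overlapped too. HOXB8 (ENSG00000120068.6, chromosome 17, 48611377 to 48614939), known for holding myeloid progenitors in an immature state when it is forced on, had 15.0 and 14.3 FPKM with DMSO and 15.7 and 16.0 FPKM with SB. HOXB9 (ENSG00000170689.9, chromosome 17, 48621159 to 48626356), the most posterior of the 8, had 9.42 and 10.5 FPKM with DMSO and 12.0 and 11.9 FPKM with SB. For HOXB8 and HOXB9 both SB values lay above both DMSO values.

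**Figure D2:**
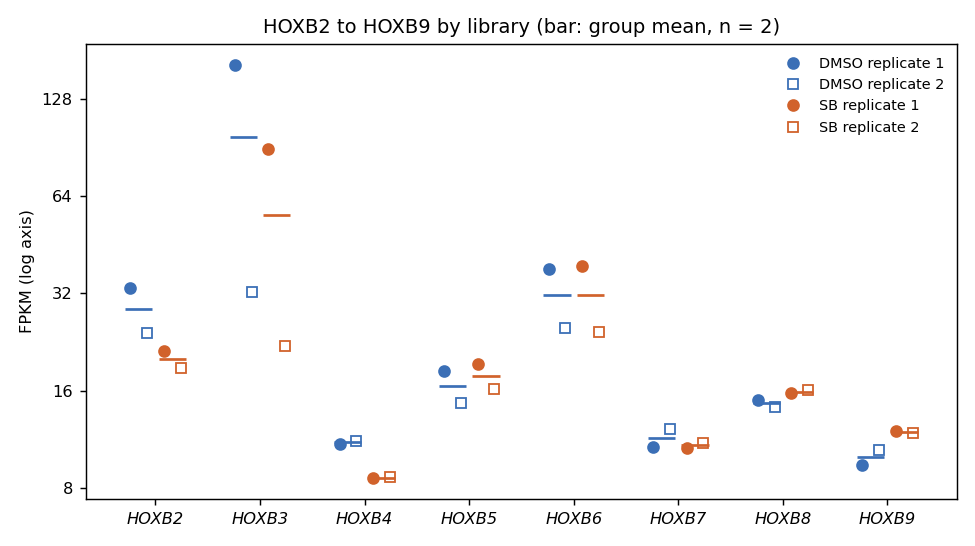
FPKM of HOXB2 to HOXB9 in each library (log axis), ordered from the 3′ end to the 5′ end of the cluster, with DMSO in blue, SB in orange, filled circles for replicate 1, open squares for replicate 2 and a bar for the mean of each group. HOXB3 ranges from 22.1 to 163.3 FPKM with both libraries of replicate 1 at the top, whereas HOXB4, HOXB8 and HOXB9 separate by treatment.

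By the order of levels, HOXB3 and HOXB6 ranked first or second in every library, followed by HOXB2, HOXB5 and HOXB8 at ranks 3, 4 and 5. HOXB4 was at rank 6 or 7 with DMSO and at rank 8 with SB, while HOXB9 was at rank 8 with DMSO and at rank 6 with SB. With SB both values of HOXB9 lay above both of HOXB7, and these above both of HOXB4, while with DMSO both values of HOXB9 lay below both of HOXB4 and the values of HOXB7 overlapped those of HOXB4. The order was not tested.

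The test of SB against DMSO was made with limma on log2(FPKM + 1) over 14909 genes. None of the 8 tested HOX genes passed an adjusted p under 0.05, and none had an unadjusted p under 0.05, beside 9.96% of all tested genes. Of all tested genes, 0.0268% were called higher and 0.107% lower with SB, so that few genes of any kind passed. HOXB2 had means of 28.7 ± 6.50 and 20.1 ± 1.77 FPKM (SD, n = 2 each) and an SB minus DMSO difference of -0.48 on the log2 scale (SE 0.22, adjusted p 0.590 by limma), the lowest adjusted p of the 8. HOXB4 had means of 11.1 ± 0.197 and 8.61 ± 0.0540 FPKM, 22.1% lower with SB, with a difference of -0.33 (SE 0.16, adjusted p 0.618 by limma). HOXB9 had means of 9.96 ± 0.758 and 11.9 ± 0.10 FPKM and a difference of 0.24 (SE 0.16, adjusted p 0.759 by limma), and HOXB8 had one of 0.11 (SE 0.16, adjusted p 0.916 by limma). On this scale the 95% intervals of the SB to DMSO ratio ran from 0.484 to 1.06 for HOXB2, from 0.601 to 1.06 for HOXB4, from 0.816 to 1.43 for HOXB8 and from 0.883 to 1.58 for HOXB9.

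For the overlapping genes the log2 fold changes were 0.10 for HOXB5 (95% interval -0.42 to 0.62, limma adjusted p 0.959), -0.0048 for HOXB6 (-0.84 to 0.83, limma adjusted p 0.999) and -0.07 for HOXB7 (-0.50 to 0.36, limma adjusted p 0.963). HOXB3 had one of -0.69 (SE 0.99, 95% interval -3.26 to 1.88, adjusted p 0.918 by limma). Its direction reversed, with values of 0.46 and 0.30, when DMSO replicate 1 or SB replicate 2 was left out. HOXB6 likewise gave 0.29 and 0.32 without these libraries. Any such removal leaves the replicate numbers unequal between the groups. Within number 1 and within number 2, HOXB3 had differences of -0.86 and -0.53. HOXB5 gave -0.06 without DMSO replicate 2 and -0.02 without SB replicate 1, and HOXB7 gave 0.02 without DMSO replicate 2. As a ratio of SB to DMSO, the interval of HOXB3 ran from 0.104 to 3.68.

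Counted over the 8 genes, 5 were lower and 3 were higher by the fitted change. The groups did not overlap for 2 lower genes (HOXB2 and HOXB4) and 2 higher genes (HOXB8 and HOXB9), beside 16.0% lower and 21.5% higher among all tested genes. The median log2 fold change was -0.04, beside 0.04 over all tested genes. Without DMSO replicate 1 or SB replicate 2 the HOX median was 0.16. From HOXB2 to HOXB9 the change moved from negative to positive with the paralog number (Spearman's rho 0.881 over 8 genes that share the same libraries, partly overlap and are not independent, given as a description). The rank correlation was also 0.881 within replicate number 1 and within replicate number 2, but the gradient rested on single libraries, with values of 0.0952 without DMSO replicate 1 and 0.310 without SB replicate 2, against 0.952 without DMSO replicate 2 and 0.857 without SB replicate 1. The 3 anterior genes HOXB2 to HOXB4 summed to 207.5 and 67.5 FPKM with DMSO and to 119.7 and 49.5 FPKM with SB. The 5 genes HOXB5 to HOXB9 summed to 91.7 and 76.7 FPKM with DMSO and to 96.6 and 79.5 FPKM with SB, and both sums overlapped between the groups.

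**Figure D3:**
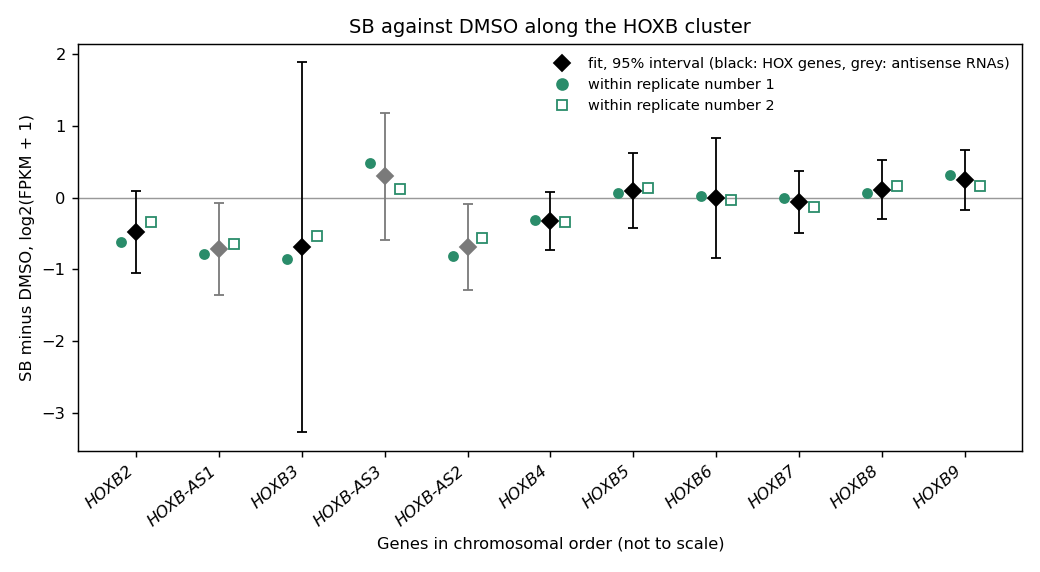
Difference of SB minus DMSO in log2(FPKM + 1) for HOXB2 to HOXB9 from the 3′ end to the 5′ end, in chromosomal order (not to scale), with the limma estimate and its unadjusted 95% interval, and the difference within each replicate number as green points. Antisense RNAs of the cluster are in grey. The intervals of the 8 HOXB genes all include 0, and that of HOXB3 is the widest at -3.26 to 1.88.

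HOXB3, HOXB5 and HOXB6 differed more between replicate numbers than between treatments. HOXB3 in replicate 1 was 5.06 times its level in replicate 2 with DMSO and 4.07 times with SB. Only 0.677% and 0.852% of the tested genes differed as much between the replicates of these groups. In replicate 1, with DMSO and with SB, HOXB6 was 1.52 and 1.60 times and HOXB5 was 1.26 and 1.19 times its level in replicate 2. Within replicate number 1 the SB minus DMSO difference in log2(FPKM + 1) was -0.86 for HOXB3, -0.62 for HOXB2, -0.32 for HOXB4 and 0.32 for HOXB9. Within number 2 the same differences were -0.53, -0.34, -0.34 and 0.16, so these 4 genes kept their direction in both numbers, as did 7 of the 8. With the replicate number as a block, HOXB3 passed (limma adjusted p 0.0265), while HOXB2 (0.0542), HOXB4 (0.0977) and HOXB9 (0.181) did not. In the same fit 10.5% of all tested genes passed, so 1 of 8 HOX genes is near the background. The labels do not say what the number marks.

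The long non-coding RNAs of the clusters were described from a list of 20, of which 18 had rows and 5 were tested. In that list 4 were lower and 1 was higher, with a median log2 fold change of -0.58, the value of HAGLR. None passed (limma, 2 at an unadjusted p under 0.05, beside 9.96% of all tested genes). HAGLR and HAGLROS passed the filter only through DMSO (SB means 0.555 and 0.443 FPKM), so their direction was fixed in advance. HOXB-AS1, on the strand opposite HOXB2 and the 3′ end of HOXB3, had 4.39 and 5.70 FPKM with DMSO and 2.13 and 3.28 FPKM with SB, a log2 fold change of -0.72 (limma adjusted p 0.450). HOXB-AS2, opposite HOXB3, had 3.31 and 2.29 FPKM with DMSO and 1.45 and 1.23 FPKM with SB, a log2 fold change of -0.69 (limma adjusted p 0.443). With the replicate block HOXB-AS1 passed (limma adjusted p 0.0414) and HOXB-AS2 did not (0.0793). For both, the groups did not overlap, and SB was lower. HAGLR, which lies between HOXD3 and HOXD1, had 1.14 and 1.49 FPKM with DMSO and 0.401 and 0.709 FPKM with SB, a log2 fold change of -0.58 (limma adjusted p 0.556). HOXB-AS3, whose row runs opposite HOXB3 to HOXB6, overlapped between groups, with 4.38 and 2.97 FPKM against 6.47 and 3.29 FPKM, a log2 fold change of 0.29 (limma adjusted p 0.886) that became -0.10 without SB replicate 1. HOTAIR, in the HOXC cluster, and 5 others were listed at 0 in every library, as were 5 of 5 hairpins of the miRNAs encoded in the clusters. Whether strand was used in counting is not stated, so antisense and HOXB values cannot be fully told apart.

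The other 31 HOX genes lay below the filter and were not tested. The highest was HOXD1 at 0.485 FPKM in a DMSO library, HOXC5 and HOXD12 were listed at 0 in all libraries, and 29 were above 0 somewhere. Both SB values lay below both DMSO values in 12 of the 29 (41.4%), among them HOXA5, HOXA7, HOXA10, HOXA11 and HOXA13, HOXB13, HOXC4, and HOXD1, HOXD4, HOXD8 and HOXD9. The reverse order was seen in 0. Among all rows above 0 and below the filter these shares were 16.0% lower and 11.7% higher, and among the protein-coding ones 23.4% were lower. By their means 21 were lower and 8 were higher, beside 53.2% lower among all rows above 0 and below the filter. In both SB libraries 11 were listed at 0, against 3 in both DMSO libraries. No share over all rows was taken for these counts at 0, and SB replicate 1 had the fewest fragments (19660000).

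In the HOXA cluster, HOXA11, a gene of limb and urogenital development, had 0.159 and 0.339 FPKM with DMSO and was listed at 0 in both SB libraries. HOXA10 had 0.111 and 0.182 FPKM with DMSO and 0.0967 and 0.0898 FPKM with SB. HOXA9, a gene of blood stem cells and leukemia, was listed at 0 in DMSO replicate 1, had 0.282 FPKM in DMSO replicate 2 and had 0.199 and 0.210 FPKM with SB. Its groups overlapped. HOXA13, the gene at the 5′ end, had 0.174 and 0.126 FPKM with DMSO and 0.0868 and 0.0694 FPKM with SB. These levels are near the worth of a few fragments, and for genes with several transcripts the number of fragments was not recovered.

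For the 9 low genes with 1 transcript the fragments could be counted. HOXD1, the gene at the 3′ end of its cluster, had 20 and 12 fragments with DMSO and 3 and 4 with SB. HOXB13, which lies apart at the 5′ end of its cluster, had 14 and 14 with DMSO and 7 and 5 with SB. HOXD9 had 7 and 8 with DMSO and 0 and 4 with SB. These genes held most of the fragments, and the other 6 (HOXC5, HOXC8, HOXC12, HOXC13, HOXD4 and HOXD13) had at most 3 in a library. Together the 9 genes had 44 and 39 fragments with DMSO and 11 and 19 with SB. As a rate per 1000000 fragments of the library this came to 1.82 (95% Poisson interval 1.32 to 2.44) and 1.66 (1.18 to 2.27) with DMSO and to 0.560 (0.279 to 1.001) and 0.731 (0.440 to 1.14) with SB. The intervals of the DMSO libraries did not overlap those of the SB libraries, and they cover counting error only. No such rate was taken over other low genes with 1 transcript. The difference therefore cannot be read as particular to HOX genes, and it was not tested.

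**Figure D4:**
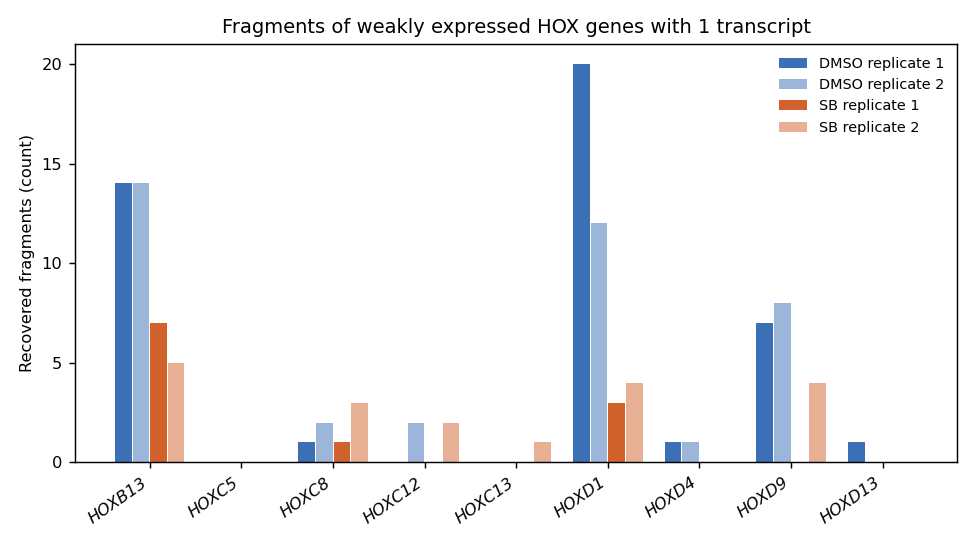
Recovered fragments (count) in each library for the 9 low HOX genes with 1 transcript (HOXC5 has none), with DMSO and SB libraries side by side. HOXD1, HOXB13 and HOXD9 hold most of the fragments, with 20 and 12 against 3 and 4 for HOXD1.

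Cofactors of the PBX and MEIS families, which bind DNA with HOX proteins, were expressed in all libraries. Of 11 TALE homeodomain genes, TGIF1 and TGIF2 included, 9 were tested, of which 6 were higher, 3 were lower and none passed. By limma 2 had an unadjusted p under 0.05, beside 9.96% of all tested genes, and the median log2 fold change was 0.15. MEIS1, a cofactor needed by blood stem cells, had 30.0 and 39.6 FPKM with DMSO and 47.9 and 53.9 FPKM with SB (log2 fold change 0.55, limma adjusted p 0.485). MEIS2 had 45.0 and 36.7 FPKM against 58.7 and 48.8 FPKM (log2 fold change 0.39, limma adjusted p 0.649). For both genes the SB values lay above the DMSO values. TGIF1, a repressor that also binds SMAD proteins, was on the other side with 21.8 and 21.3 FPKM against 12.9 and 15.5 FPKM (log2 fold change -0.57, limma adjusted p 0.388). With the replicate block MEIS1, MEIS2 and TGIF1 passed (limma adjusted p 0.0309, 0.0367 and 0.0420), 3 of the 9 tested, beside 10.5% of all tested genes.

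No gene on the lists of Trithorax and DOT1L genes and of Polycomb genes passed the test, with or without the replicate block. None of the 3 CDX genes, activators of HOX clusters in the posterior embryo, reached the filter, and CDX2 had 1.36 and 0.571 FPKM with DMSO and 0.488 and 0.365 FPKM with SB. Of 15 genes of Trithorax and DOT1L complexes, which keep HOX genes active, 9 were lower, 6 were higher and none passed (limma, 0 at an unadjusted p under 0.05, median -0.05). KDM6B had the smallest p of these, with 26.5 and 32.3 FPKM against 26.5 and 20.6 FPKM (limma adjusted p 0.759). Of 15 Polycomb genes, which keep them silent, 12 were lower, 3 were higher and none passed (limma, 1 at an unadjusted p under 0.05, median -0.09). Among all tested genes 9.96% had such an unadjusted p. CBX7 had 4.53 and 3.65 FPKM against 2.37 and 2.24 FPKM (log2 fold change -0.62, limma adjusted p 0.406), and EZH1 had 11.6 and 17.2 FPKM against 8.84 and 11.0 FPKM (-0.48, limma adjusted p 0.669).

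Of 12 genes that flank the clusters 9 were tested, with 6 lower, 3 higher and none past the test (limma, 3 at an unadjusted p under 0.05, beside 9.96% of all tested genes, median -0.26). SKAP2, beside the 3′ end of HOXA, had 3.60 and 4.94 FPKM with DMSO and 7.40 and 7.51 FPKM with SB (log2 fold change 0.69, limma adjusted p 0.366, or 0.0477 with the replicate block, the 1 call of this list in that fit). EVX1, a homeobox gene of the primitive streak beyond HOXA13, had 2.57 and 1.18 FPKM against 0.640 and 0.115 FPKM (log2 fold change -1.04, limma adjusted p 0.454). PRAC1, between HOXB13 and HOXB9, had 3.22 and 2.96 FPKM against 0.986 and 1.86 FPKM (log2 fold change -0.78, limma adjusted p 0.424). These 3 genes, with the smallest p of the list, lay on both sides of 0. Their groups did not overlap, as for 16.0% lower and 21.5% higher among all tested genes. EVX1 passed the filter only through DMSO (SB mean 0.378 FPKM), so its direction was fixed in advance.

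**Figure D5:**
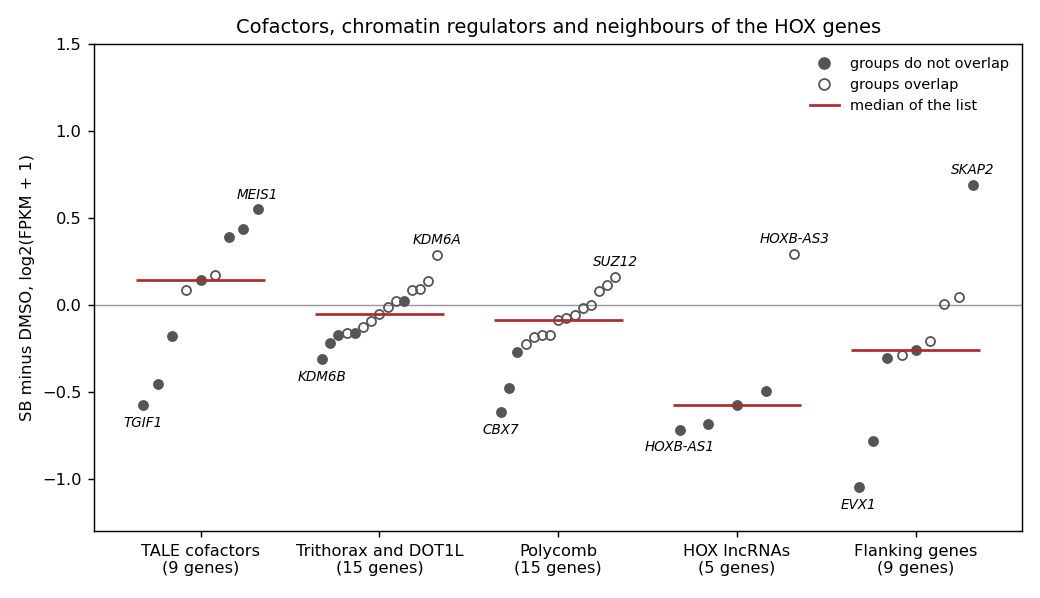
Difference of SB minus DMSO in log2(FPKM + 1) for each tested gene of the lists of cofactors, Trithorax and DOT1L, Polycomb, HOX long non-coding RNAs and flanking genes. Filled points mark genes whose groups do not overlap and the bar marks the median of the list, which ranges from -0.58 for the non-coding RNAs to 0.15 for the cofactors. The median of the non-coding RNAs is the value of HAGLR, which passed the filter only through DMSO.

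Marker lists of cells that could be present were summed beside the HOX values. The 12 endothelial markers were all tested, with 8 lower, 4 higher and summed levels of 2024 to 2768 FPKM that overlapped between groups. Of 10 tested blood progenitor markers 8 were higher, with sums of 511 and 480 FPKM with DMSO and 778 and 685 FPKM with SB. CD34 and MECOM were lower. Of the mesenchymal markers, 10 of 11 tested were lower, with sums of 431 and 389 FPKM against 222 and 219 FPKM. PRRX1, with means of 1.34 FPKM with DMSO and 0.264 FPKM with SB, passed the filter only through DMSO. The 10 tested endoderm markers were all lower, with sums of 175 and 191 FPKM against 17.7 and 16.3 FPKM. Of these, APOB, FOXA1, FOXA2, FOXA3, HNF4A, SERPINA1 and FGB had SB means under 1 FPKM. They passed the filter only through DMSO, so their direction was fixed in advance. The other 3, AFP, APOA1 and TTR, passed the test, beside 0.107% of all tested genes called lower. The 10 arterial markers were lower, with sums of 2415 and 1776 FPKM against 1238 and 923 FPKM, and GJA5 passed. These 4 calls were lost with no filter and when any 1 library was left out, with their direction kept. With the replicate block, 7 of 10 blood progenitor, 8 of 10 arterial, 8 of 11 mesenchymal, 7 of 10 endoderm and 2 of 12 endothelial markers passed. The blood progenitor calls include MECOM, which was lower with SB (log2 fold change -0.46, limma adjusted p 0.0263). The mesenchymal calls include FOXF1, which was higher with SB (log2 fold change 0.63, limma adjusted p 0.0430). In that fit 10.5% of all tested genes passed. Of the 6 tested pluripotency markers 3 were lower and 3 were higher, with sums of 114 and 129 FPKM against 148 and 160 FPKM. LIN28A, DPPA4 and DNMT3B made up most of these sums. POU5F1 had at most 1.60 FPKM in a library, NANOG at most 0.0261 and SOX2 at most 0.121. TDGF1 and ZFP42 passed the filter only through DMSO and POU5F1 only through SB, which fixed their directions. The 3 tested neural and neural crest markers were lower (TFAP2A by -0.0098, and 0.03 without DMSO replicate 2), with sums of 84.9 and 50.1 FPKM against 49.7 and 31.0 FPKM, and FOXD3 was listed at 0. NES and TUBB3 made up most of these sums. PAX6, SOX1, SOX10 and TFAP2B had at most 0.0859, 0.0161, 0.191 and 0.0278 FPKM in a library. The part of these cells in the HOX values, the low HOX genes included, was not tested, and in such bulk samples fewer cells of a type and less RNA per cell cannot be told apart.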

How the data were processed

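RNA-seq of 2 DMSO and 2 SB libraries was analysed from the FPKM table deposited by the authors, with 1 column per library, all of them used. The sequencing was done by a service company, and per the labels the submitters' processing notes name BWA, Bowtie, RSEM and hg19, without versions or roles. The coordinates of the rows are those of GRCh38: 95.5% of the identifiers occur with the same version in GENCODE release 29, and 99.8% of these have the same position. Positions are given on GRCh38 and counted from 1.

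Groups were taken from the titles. Genes with a mean of at least 1 FPKM in at least 1 group were compared on log2(FPKM + 1) with limma 3.58.1 in R 4.3.3 (empirical Bayes with a trend, group as the only term, all 4 libraries, two-sided, Benjamini-Hochberg adjustment over 14909 genes, threshold 0.05). The script was tested on simulated data. The pseudocount of 1 understates changes of low genes. An exact 0 can be a failed estimate, so such genes are called listed at 0.

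Depth was recovered from genes with 1 transcript of 1200 to 6000 nt and at most 6 fragments, whose FPKM equals fragments over depth and effective length: between 92.3% and 94.5% of 1250 to 1315 genes in a library came out within 0.05 of a whole number. The recovered fragments were used for description, and the FPKM for the test.

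The HOX genes and the gene lists were chosen with earlier results of these data known. Each tested HOX gene was named, and of each list up to 3 genes with the smallest p, with MEIS1 and CDX2 in any case. Some genes and sequences are counted but not reported here singly. HOXB-AS3, the low HOX genes given with values and the homeobox stretches were chosen after their values were seen. Other settings tried were a replicate block, leaving out each library, quantile normalization, scaling by the upper quartile, 0.1 FPKM as the pseudocount, no filter, a filter of 5 FPKM in 2 libraries, the mean in place of the median and the sum of a symbol's rows (no symbol had several).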

Additional observations from a re-analysis of the deposited data

How the results depend on the processing

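The count of 20 genes past the limma test became 1564 with the replicate block, 31 with quantile normalization, 0 with no filter (2739 at an unadjusted p under 0.05) and 0 to 16 when each library was left out in turn. Of the HOX genes, 1 passed with the replicate block (HOXB3) and 0 under the other alternatives. The replicate differences of the DMSO and SB libraries correlated at 0.528 over the tested genes. Over the tested HOX genes, which are not independent, they correlated at 0.984. HOXB3 weighs most in this value, with replicate differences of 2.30 with DMSO and 1.98 with SB on the log2 scale. However, the labels give the number no meaning and there are only 2 pairs, so the block was not used as the main fit. The median log2 fold change of the HOX genes, -0.04, was -0.14 as a mean and ranged from -0.185 to 0.1575 when each library was left out.

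The direction reversed only on leaving out single libraries, for 6 of the 47 tested genes that were followed over the alternatives, which include list genes given above only in counts. Genes below the filter were not followed. Over the 4 removals the lowest and highest log2 fold changes were -1.844 and 0.4607 for HOXB3, -0.3319 and 0.3224 for HOXB6, -0.05826 and 0.2519 for HOXB5, -0.1552 and 0.0183 for HOXB7, -0.05347 and 0.03397 for TFAP2A and -0.105 and 0.693 for HOXB-AS3. The cause was not tested. With 2 libraries a group, the intervals above, and not the depth, limit the expressed genes, and single fragments limit the low ones. A count model was not run because the table holds no counts.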
